A study of Mus musculus with 3 samples.

Results

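Heat shock chaperones were examined as 10 genes: Hsph1, Hspa1a, Hspa1b, Dnajb1, Hsp90aa1, Hspb1, Hspa8, Hsp90ab1, Hspd1 and Hspe1. They are 10 of the 51912 genes counted by scRNA-seq in sorted mouse intestinal epithelium, and all 10 were found by symbol. The set was chosen from the contrast of Arid3a cKO with WT in these same libraries, in which Hsph1 had been among the lower genes, so every cKO and WT value below is a description and carries no test. The cKO mice carried VillinCreERT2 and Arid3a fl/fl, and the WT control carried VillinCreERT2. The Villin promoter restricts this tamoxifen-activated Cre recombinase to the intestinal epithelium, where it removes the floxed gene. Both genotypes were given tamoxifen at 8 to 10 weeks of age and were harvested 1 month after the first injection, so drug and recombinase are shared by the groups. EDTA-released crypts were dissociated to single cells, and living Epcam+, CD45-, CD31- cells went into the 10x Genomics 3′ assay, in which each captured transcript is counted once by its unique molecular identifier (UMI).

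Cells with at least 1000 detected genes and at most 15% mitochondrial UMIs were used, which left 2134 and 1550 cells in the libraries Arid3a cKO 1 and Arid3a cKO 2 (below, cKO 1 and cKO 2) and 1910 cells in the single WT library. Between 58169310 and 70922480 UMIs per library stood behind the values, and the median cell held 29895 to 35764. At most 2 of the kept barcodes were shared by any pair of libraries. With 1 WT library, genotype and library cannot be told apart, and the labels do not say how many mice a library holds. Levels are given in CPM (a gene's UMIs over the UMIs of the same cells, scaled to the usual fixed library size) with exact Poisson 95% intervals, which cover counting error only. All values below follow the order cKO 1, cKO 2, WT unless named. Arid3a itself stood at 0.592 CPM (0.427 to 0.80), 0.894 CPM (0.668 to 1.17) and 2.57 CPM (2.19 to 2.997). Epcam, the protein used in the sort, was seen in at least 1546 cells of each library. The 7 immune markers summed to 1.80, 1.67 and 4.16 CPM, with 1, 2 and 2 of them at 0. The 4 stromal markers summed to 0.028, 3.80 and 0.016 CPM. The part of these markers, of depth and of mitochondrial share in the differences below was not tested beyond the values given.

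Heat shock proteins are molecular chaperones that bind unfolded or aggregating proteins and help them refold. HSP70 proteins work in cycles of ATP hydrolysis that are started by J-domain partners such as Dnajb1 and reset by nucleotide exchange factors such as Hsph1, while HSP90 proteins act later on clients such as kinases and steroid receptors. Under heat or proteotoxic stress the factor HSF1 binds heat shock elements, inverted repeats of the unit GAA in the promoters of the inducible members. Some members are made without stress in every cell, and Hspd1 with its lid Hspe1 forms the chaperonin of the mitochondrial matrix. In the intestine the epithelium is renewed by dividing stem cells (ISC) and their transit-amplifying (TA) daughters in the crypt, which need chaperones for protein synthesis and growth.

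The promoters are shown because heat shock elements lie in this part of a gene. The matches below did not divide the members by role, as the mitochondrial Hspd1 and Hspe1 had them and the inducible Dnajb1 did not. RefSeq promoter entries (GRCm38.p6) were matched for 7 of the 10 genes, with Hspa8, Hsp90aa1 and Hsp90ab1 named only. In the 250 bases before the start, a pair of facing units (GAANNTTC or TTCNNGAA, each of which is its own reverse complement, so both strands are covered) was found in 6 of the 7 genes, and it was found in 12.8% of 32851 promoters of the same length. Capitals mark the matched element in the following stretches, each written 5′ to 3′ on the strand of its gene. The Hsph1 stretch is chr5:149636356-149636375 (minus strand), Hspa1a chr17:34972247-34972266 (minus), Hspa1b chr17:34959329-34959348 (minus), Hspb1 chr5:135887796-135887835 (plus), Hspd1 chr1:55088053-55088082 (minus) and Hspe1 chr1:55088053-55088082 (plus).
Hsph1: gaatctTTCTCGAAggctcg
Hspa1a: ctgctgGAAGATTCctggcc
Hspa1b: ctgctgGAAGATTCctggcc
Hspb1: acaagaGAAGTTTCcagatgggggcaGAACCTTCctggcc
Hspd1: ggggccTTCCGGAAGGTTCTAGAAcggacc
Hspe1: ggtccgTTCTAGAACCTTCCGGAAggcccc
The lines of Hspd1 and Hspe1 are the same element read on opposite strands. It holds 3 or more alternating units in a row, which 0.466% of all promoters did. For Hspd1 it stands before the start of entry 2, while entry 1, whose start lies further upstream, had 0 matches. The starts are those of RefSeq. By the gene positions given below, the Hsph1 and Hspd1 stretches lie within their genes. Dnajb1 had an entry and no such match. The AT-rich letters ATTAAA or TTTAAT, chosen because ARID proteins favour AT-rich DNA, stood in 12.7% of all promoters and in 0 of the 7 genes, which says only that these letters are not in this window.

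Hspa1a and Hspa1b, the neighbouring genes of inducible HSP70, are shown over the whole 250 bases because they are near copies that are nevertheless counted apart. The windows are chr17:34972157-34972406 and chr17:34959239-34959488 on the minus strand, and they differ at 3 positions (98.8% identity).
Hspa1a: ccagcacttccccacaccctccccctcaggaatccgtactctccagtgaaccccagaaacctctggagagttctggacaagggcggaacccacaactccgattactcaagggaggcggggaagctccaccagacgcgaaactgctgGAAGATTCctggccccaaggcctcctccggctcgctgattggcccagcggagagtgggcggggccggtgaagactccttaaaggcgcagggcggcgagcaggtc
Hspa1b: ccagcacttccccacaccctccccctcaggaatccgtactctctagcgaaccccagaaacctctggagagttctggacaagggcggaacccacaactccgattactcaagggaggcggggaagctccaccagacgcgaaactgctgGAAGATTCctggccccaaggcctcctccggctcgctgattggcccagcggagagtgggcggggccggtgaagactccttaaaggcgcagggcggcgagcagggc
Their coding sequences (1926 and 1929 bases) are 99.5% identical, and 82.3% of the 50-base windows of Hspa1a occur in Hspa1b. The 3′ UTRs, where this assay reads, are 810 and 643 bases long and share 0 windows of 50 bases, although reads that fall in the coding part could have been assigned to either gene or discarded. Their values are therefore given singly and side by side.

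Hsph1 (HSP110, the nucleotide exchange factor of HSP70, chr5:149614287-149636376, minus strand, protein-coding) was the member with the widest gap between the genotypes. Over all cells it stood at 27.8 CPM (26.5 to 29.0), 35.9 CPM (34.4 to 37.5) and 114 CPM (111 to 116), from 1969, 2090 and 7122 UMIs. WT was above both cKO libraries, whose distance from each other was far smaller than that of either from WT. The WT level was 4.09-fold (3.89 to 4.30) that of cKO 1 and 3.16-fold (3.01 to 3.32) that of cKO 2. Further values are log2 ratios, in which each cKO library is divided by WT after adding 5 CPM to both, a scale that understates the change of weakly expressed genes. On it Hsph1 was at -1.86 and -1.53, with a mean of -1.70 (SD 0.23, n = 2 cKO libraries).

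A gene was counted as lower when its mean over the libraries was at least 20 CPM and both log2 ratios were at most -1. Of the 10 members, 9 had a sufficient level in all cells, and Hspb1 did not. Hsph1 was the 1 member counted as lower, and it was so in each of 3 sets: all cells, enterocytes, and the ISC with the TA cells. In enterocytes it reached the mean of 20 CPM through WT alone, as both cKO libraries were below 20 CPM, and with clustering without integration its mean was under that minimum and 0 members were counted. Of all genes tested the same rule counted 0.281% in all cells (15 of 5336), 0.275% in enterocytes (13 of 4726) and 0.267% among ISC and TA cells (15 of 5613), and since the members were chosen from this contrast nothing is read from their count against these shares. The median of the mean log2 ratios over the 10 members was -0.33 in all cells, -0.26 in enterocytes and -0.30 among ISC and TA cells, beside medians of 0.02, -0.01 and 0.02 over all genes tested. The enterocyte median depended on the library, at -0.15 for cKO 1 alone and -0.75 for cKO 2 alone.

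**Figure D1:**
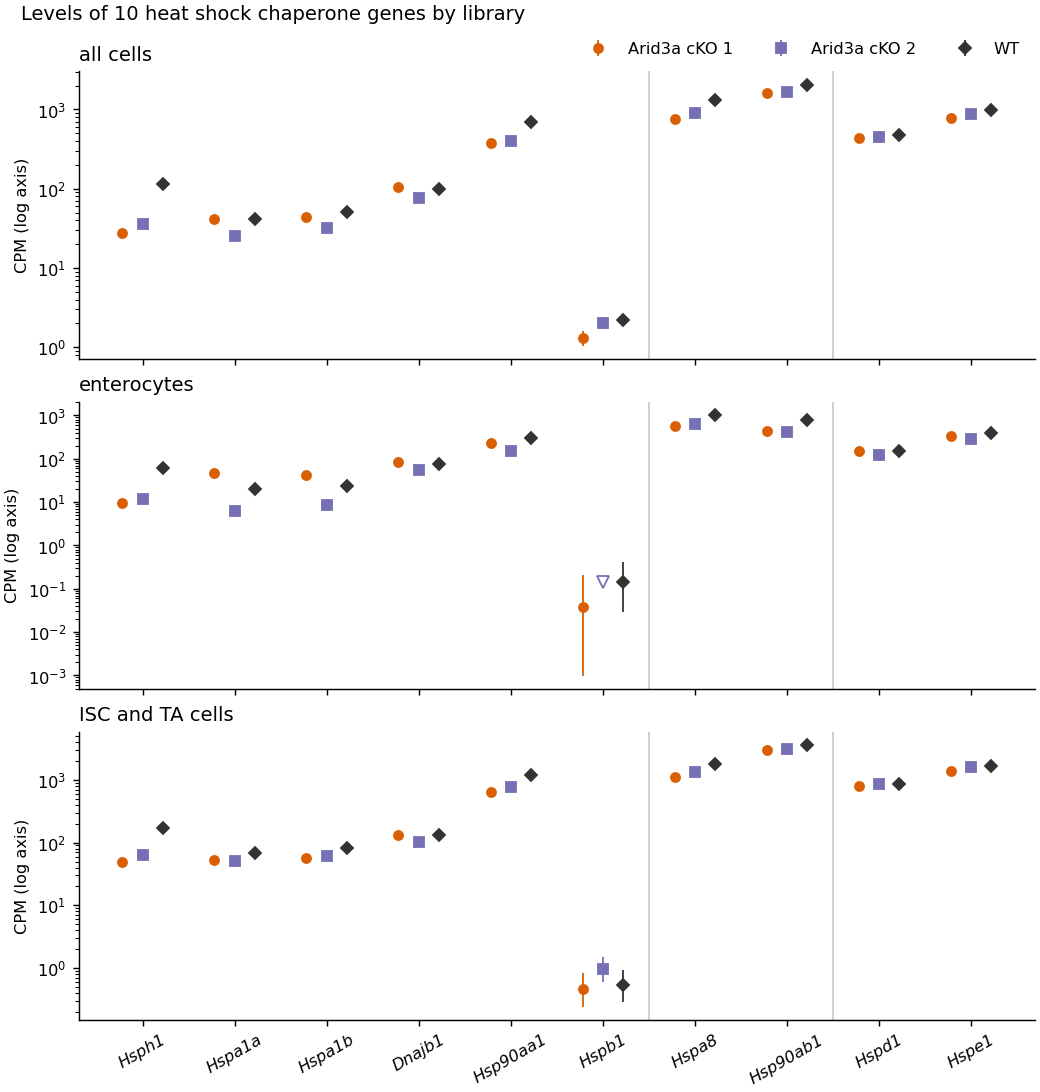
Levels of the 10 genes in CPM (logarithmic axis) in the 3 libraries, over all cells, enterocytes, and ISC and TA cells, with exact Poisson 95% intervals. The open triangle stands for 0 UMIs and is drawn at the CPM of 3 UMIs. Hsph1 lies at 27.8 and 35.9 CPM in the cKO libraries and at 114 CPM in WT over all cells, while the points of Hspd1 nearly coincide.

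The other stress-inducible members were spread widely around this. Hsp90aa1 (the inducible cytosolic HSP90, chr12:110690605-110702728, minus strand) stood at 376, 401 and 692 CPM over all cells (log2 ratios of -0.87 and -0.78). Both cKO libraries were close to each other, and WT was 1.84-fold and 1.72-fold above them, which is short of the size required for a lower gene. Hspa1a (chr17:34969190-34972156, minus strand) stood at 41.4, 25.1 and 41.7 CPM, so that cKO 1 matched WT and cKO 2 alone was below. Hspa1b (chr17:34956436-34959238, minus strand) had 43.5, 32.3 and 51.0 CPM in the same order of libraries. Dnajb1, the J-domain protein that hands clients to HSP70 (chr8:83608193-83612653, plus strand), was at 106, 77.3 and 98.9 CPM, with WT between the cKO libraries. The inducible group thus had a member with a wide gap, a member with a narrower one, and 3 in which the cKO libraries differed from each other about as much as from WT.

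Hspb1 (the small heat shock protein HSP27, chr5:135887919-135889563, plus strand) was rare, with 92, 118 and 137 UMIs over all cells (1.297, 2.03 and 2.19 CPM). In enterocytes it had 1, 0 and 3 UMIs. The 0 allows up to 0.145 CPM, so no ratio is given for it there.

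The constitutive members had narrower gaps than Hsph1. Hspa8 (HSC70, the housekeeping HSP70 of the cytosol, chr9:40800984-40810087, plus strand) stood at 769, 911 and 1308 CPM over all cells (log2 ratios of -0.76 and -0.52). Its WT level was 1.70-fold and 1.44-fold that of the cKO libraries. Hsp90ab1 (the constitutive HSP90, chr17:45567775-45573271, minus strand) had 1594, 1663 and 2059 CPM and log2 ratios of -0.37 and -0.31. For both genes WT was the highest library, and neither reached the size set for a lower gene.

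The mitochondrial pair differed little between the libraries. Hspd1 (HSP60, chr1:55077835-55088243, minus strand) stood at 438, 449 and 476 CPM, and its log2 ratios were -0.12 and -0.08. Hspe1 (HSP10, chr1:55088132-55091307, plus strand) stood at 785, 876 and 976 CPM, with -0.31 and -0.15. The 4 pseudogenes named for Hspd1 held 134, 119 and 133 UMIs, against 31070, 26110 and 29821 for the gene. The 5 named for Hspe1 held at most 17 UMIs in any library. Reads that match both a gene and a pseudogene may have been discarded and are not in these counts.

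Summed by role, the 6 stress-inducible genes amounted to 596, 574 and 999 CPM over all cells, the constitutive pair to 2363, 2574 and 3367 CPM, and the mitochondrial pair to 1223, 1325 and 1451 CPM. WT was the highest library in each sum. Hsp90aa1 alone made up 376, 401 and 692 CPM of the inducible sum, which therefore mostly follows this gene and does not stand for each inducible member.

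**Figure D2:**
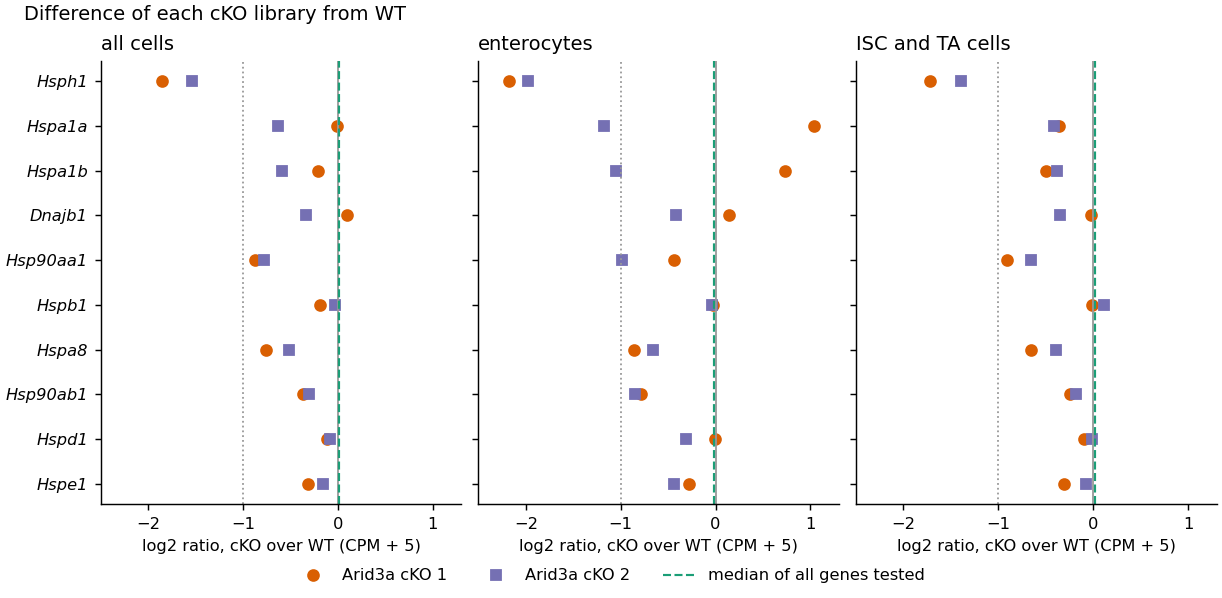
Log2 ratio of CPM + 5 in each Arid3a cKO library to WT for the 10 genes, in all cells, enterocytes, and ISC and TA cells. The dashed line is the median of all genes tested and the dotted line the value of -1 required of a lower gene. Hsph1 is past the dotted line in both libraries in each panel, and Hspa1a in enterocytes lies at 1.03 for cKO 1 and -1.18 for cKO 2.

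Clusters were named from marker genes, with the members held out of the clustering, and gave 2118 enterocyte-like cells, 1825 ISC- and TA-like cells and smaller secretory classes, called here by the class alone. In enterocytes, the absorptive cells of the villus, Hsph1 stood at 9.53 CPM (8.39 to 10.8), 11.7 CPM (10.3 to 13.3) and 60.6 CPM (57.3 to 64.0). The intervals of the cKO libraries overlapped each other and lay far below that of WT. The log2 ratios were -2.18 and -1.97, and WT was 6.36-fold (5.55 to 7.31) and 5.18-fold (4.51 to 5.97) above them. In ISC and TA cells Hsph1 reached 49.3, 62.9 and 173 CPM (log2 ratios of -1.72 and -1.39). The dividing cells of every library thus held more Hsph1 than its enterocytes.

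Inducible HSP70 behaved otherwise in enterocytes, where the cKO libraries lay on opposite sides of WT. Hspa1a was at 47.6 CPM (45.0 to 50.3), 6.33 CPM (5.29 to 7.51) and 20.7 CPM (18.8 to 22.7). Hspa1b went the same way, with 42.5, 8.80 and 23.6 CPM. The near-copies were thus high and low in the same libraries, and a mean over the cKO libraries (a log2 ratio of 1.03 averaged with -1.18 for Hspa1a) hides a gap between them that is wider than the distance of either to WT. In ISC and TA cells the libraries were closer. Hspa1a stood there at 52.3, 50.4 and 68.7 CPM and Hspa1b at 56.9, 62.1 and 82.5 CPM, with WT highest for both. Dnajb1 had WT between the cKO libraries in enterocytes (84.0, 55.4 and 75.6 CPM), and in ISC and TA cells cKO 1 matched WT (132, 104 and 134 CPM).

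For Hsp90aa1, Hspa8 and Hsp90ab1 WT was the highest library in both sets. Hsp90aa1 was at 227, 153 and 309 CPM in enterocytes, then at 633, 756 and 1193 CPM in ISC and TA cells. Hspa8 was at 559, 643 and 1021 CPM in enterocytes and at 1131, 1353 and 1782 CPM in ISC and TA cells. Hsp90ab1 had log2 ratios of -0.78 and -0.84 in enterocytes (446, 427 and 771 CPM) and of -0.24 and -0.18 in ISC and TA cells (2984, 3108 and 3534 CPM). The difference between these classes was not tested, since each rests on the same 3 libraries. Hspd1 had log2 ratios of -0.00 and -0.31 in enterocytes and of -0.10 and -0.01 among ISC and TA cells, and Hspe1 had -0.28 and -0.43, then -0.30 and -0.08.

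Across the 7 named classes, Hsph1 stood below WT in both cKO libraries in each, as did Hsp90aa1 and Hspa8, always against the same WT library. Hsph1 had its highest mean level in tuft cells, the chemosensory cells of the epithelium, at 29.3, 80.5 and 229 CPM from 15, 33 and 105 UMIs. TA cells followed with 51.2, 67.1 and 204 CPM, enteroendocrine cells with 59.6, 47.0 and 139 CPM and ISC with 46.8, 56.1 and 125 CPM. Goblet cells (21.6, 18.0 and 77.1 CPM), enterocytes and Paneth cells (6.11, 3.93 and 16.2 CPM) came last. Neighbours in this order had overlapping ranges throughout, so the order of adjacent classes is not settled, while the highest and the lowest mean differ 12.9-fold. The Paneth class rests on 34, 17 and 29 cells and the tuft class on 39, 20 and 40.

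For most members the dividing crypt cells were at the top. Hspa1a, Hspa1b, Hsp90ab1, Hspd1 and Hspe1 had their highest mean in ISC, and Hsp90aa1 and Hspa8 in TA cells. The ranges of Hspa1a and Hspa1b overlapped those of enteroendocrine cells, and the ranges of Hsp90aa1 and Hspa8 those of tuft cells. Their top class is therefore not settled. In cKO 1, Hspa1a was at 76.3 CPM in enteroendocrine cells and at 45.5 CPM in ISC. Paneth cells, which secrete antimicrobial proteins, had the lowest mean CPM of 9 members. The highest class exceeded the lowest 8.63-fold (Hspa8) to 13.8-fold (Hspa1a) among these 9. Paneth cells were also the deepest, with medians of 119501, 177412 and 127390 UMIs. Their low CPM is a share of this larger total and does not say that a cell held fewer UMIs of a member. For Hspd1, ISC (805, 880.0 and 845 CPM) and TA cells (801, 835 and 866 CPM) overlapped each other, and every library of both was above every library of the next class, tuft cells (209, 427 and 282 CPM). The same separation held for Hspe1 and Hsp90ab1. For the mitochondrial members the libraries within ISC and within TA cells therefore differed less than these classes did from every other class. In proportion, libraries differed more in Paneth cells, with Hspd1 at 83.9, 42.5 and 71.1 CPM and Hspe1 at 176, 77.5 and 156 CPM. In tuft cells cKO 2 stood apart for Hspe1, with 849 CPM from 20 cells, against 377 and 371 CPM in cKO 1 and WT.

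**Figure D3:**
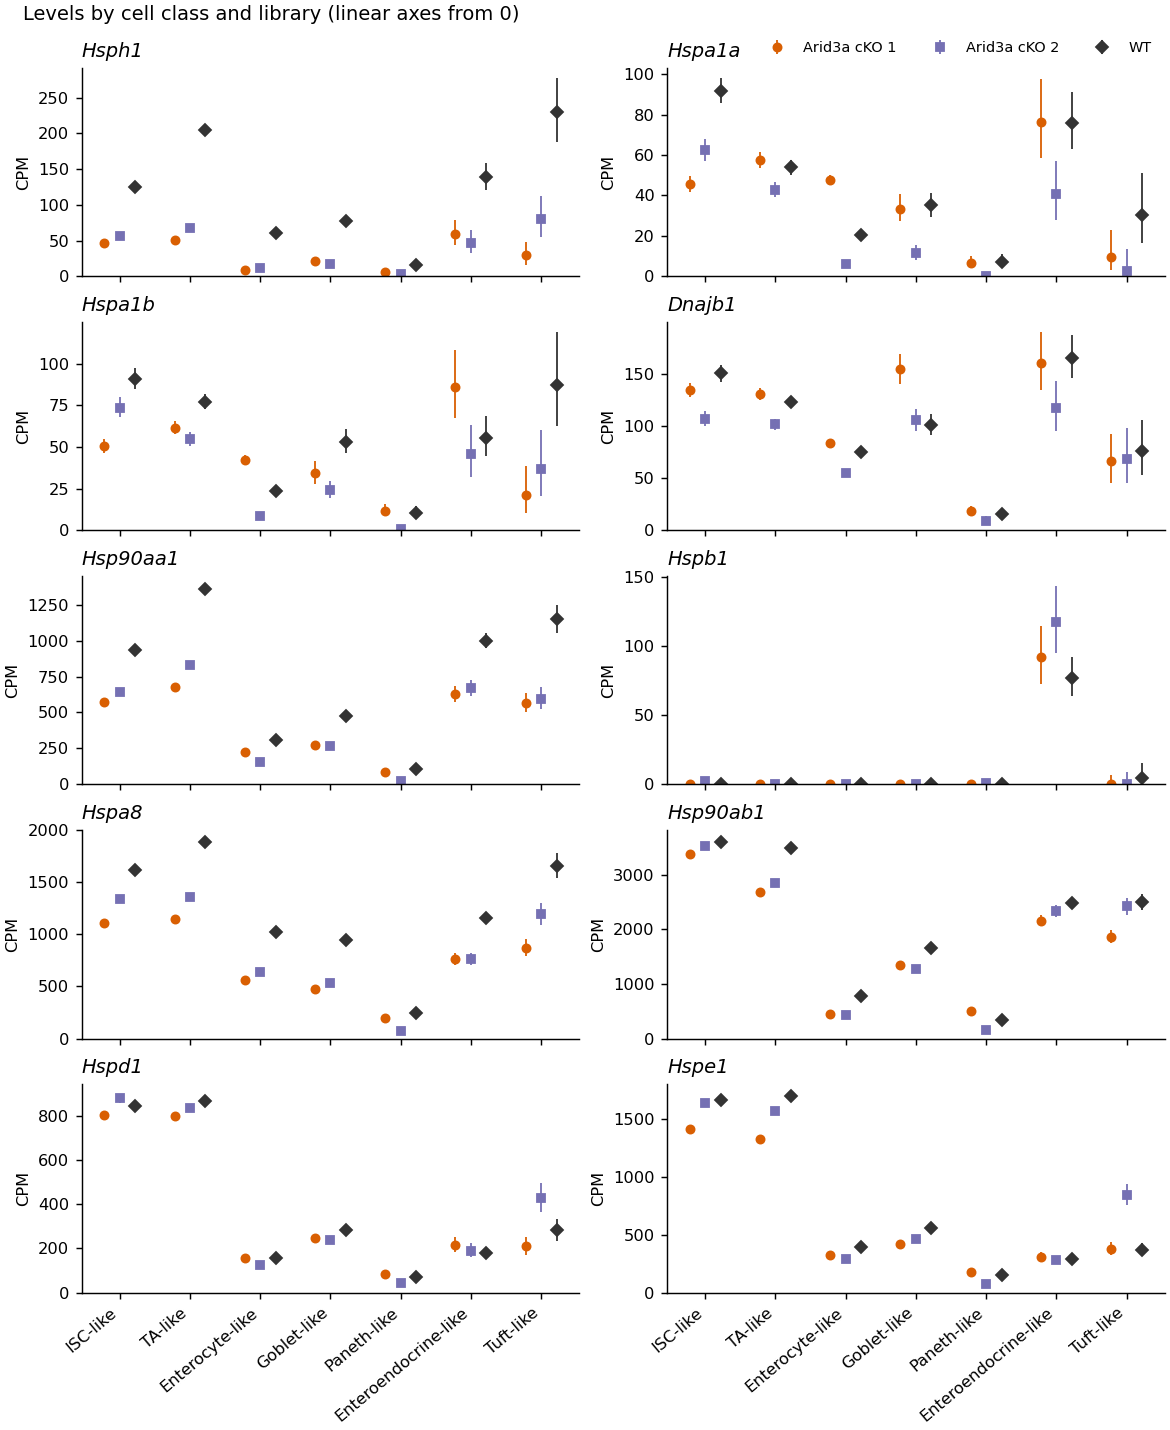
Levels in CPM (linear axes from 0) of the 10 genes in the 7 named cell classes, with 1 point per library and exact Poisson 95% intervals. WT is the highest point for Hsph1 in each class, Hspd1 and Hspe1 are highest in ISC and TA cells, and Hspb1 rises above the axis almost solely in enteroendocrine cells, at 77.2 to 117 CPM.

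Hspb1 was the member most restricted to a class. Enteroendocrine cells, which secrete hormones, held 91.8, 117 and 77.2 CPM, and the next class, tuft cells, had 0, 0 and 4.37 CPM. The lowest enteroendocrine library was thus above the highest library of every other class. A UMI of Hspb1 was found in 12 of 45 enteroendocrine cells of cKO 1 (26.7%, exact interval 14.6 to 41.9%), in 16 of 43 of cKO 2 (37.2%, 23.0 to 53.3%) and in 16 of 87 of WT (18.4%, 10.9 to 28.1%). These intervals overlap and cover counting error over cells of a library, so they do not compare the genotypes. Enterocytes, with deeper cells (medians of 32160, 36106 and 30872.5 UMIs against 16953, 16219 and 15645), had a UMI in 1 of 822 (0.122%), 0 of 600 and 2 of 696 cells (0.287%), where the 0 allows a share of up to 0.50%. Single enteroendocrine cells held up to 25, 22 and 20 UMIs of the gene.

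Hsph1 and Hspa1a were followed in the 3 larger enterocyte clusters, leaving out a cluster of 25, 14 and 19 cells. Cluster 1, led by the transporter genes Slc5a12, Cubn and Slc13a2, had Hsph1 at 6.12, 7.004 and 27.2 CPM. Cluster 4, led by Ms4a18, had it at 14.3, 22.2 and 118 CPM, and cluster 5, led by Akp3 and S100g, at 7.72, 6.32 and 35.4 CPM. Of these 3, cluster 4 was the highest for Hsph1 in each library, and both cKO libraries were below WT in each of the clusters. Hspa1a was distributed differently, with 83.7, 9.38 and 25.7 CPM in cluster 1, 14.2, 2.57 and 11.7 CPM in cluster 4 and 38.4, 6.32 and 26.6 CPM in cluster 5. The high Hspa1a of cKO 1 enterocytes was therefore largest in the cluster that, of these 3, had the least Hsph1 in the same library.

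Cells were next compared singly, after each had been thinned at random to 21000 UMIs so that depth was equal. Of 822, 600 and 696 enterocytes, 721, 507 and 581 were deep enough, and the rest were left out. Hsph1 had a UMI in 14.6% (12.1 to 17.4%), 16.2% (13.1 to 19.7%) and 51.3% (47.1 to 55.4%) of them, and in 21.4, 24.7 and 58.9% of the enterocytes before thinning. In ISC and TA cells the thinned shares were 62.6, 69.9 and 90%, and 71.0, 83.9 and 94.1% before thinning. The lower Hsph1 level of the cKO libraries was thus seen in how many cells held a UMI in both classes, rather than in a few cells alone. No class lacks Hsph1 by its known expression, so a background share could not be set beside these.

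The 6 stress-inducible genes together had a median of 6, 4 and 9 UMIs per thinned enterocyte and of 18, 20 and 32 per thinned ISC or TA cell. Most of these UMIs were of Hsp90aa1, which in enterocytes averaged 4.80, 3.11 and 6.58 UMIs of a mean sum of 8.67, 4.85 and 10.3. In enterocytes the upper tail told the libraries apart in another order, with a 99th percentile of 57.8, 15 and 28.6 UMIs. cKO 1 had fewer inducible UMIs than WT in the middle of its distribution and more at the top. cKO 2 was lowest at both points.

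Hspa1a and Hspa1b were part of this tail in cKO 1. Hsp90aa1 added to it in each library, with a 99th percentile of its own of 24, 11 and 20 thinned UMIs in enterocytes. At least 10 thinned UMIs of the pair were found in 45 enterocytes of cKO 1 (6.24%), in 1 of cKO 2 (0.20%) and in 10 of WT (1.72%), with as many as 73, 11 and 14 in a cell. These cells held 63.0, 6.79 and 23.5% of all UMIs of the pair in thinned enterocytes. In cKO 1, 36 of them belonged to cluster 1 (12.2% of its 295 thinned cells), where cKO 2 had 0 of 223 and WT 9 of 264. In ISC and TA cells the shares were 5.03, 7.47 and 9.82%, so there WT was highest. The cells were defined by these UMIs, and the shares describe the libraries without a test.

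Other members in those 45 cells of cKO 1 were compared with the rest of its enterocytes. Dnajb1 averaged 5.20 against 1.52 thinned UMIs and Hsp90aa1 12.3 against 4.30, both higher where Hspa1a and Hspa1b were high. Hsph1 averaged 0.22 against 0.19, Hspa8 11.8 against 11.6 and Hspd1 2.44 against 3.22 UMIs. The high cells thus carried more of some inducible members and, against all other enterocytes of cKO 1, about as much Hsph1 and Hspa8. Within cluster 1, which held 36 of the 45, the high cells of cKO 1 had more Hsph1 and Hspa8. Hsph1 averaged 0.28 against 0.11, Hspa8 12.1 against 9.13 and Hspd1 2.53 against 1.85 thinned UMIs there. In WT the 9 high cells of cluster 1 went the other way. Their means were 0.33 against 0.51 for Hsph1, 14.7 against 17.2 for Hspa8 and 1.56 against 1.87 for Hspd1. Over all enterocytes of cKO 1, the median mitochondrial share of the high cells was 5.602% against 5.44%. Immediate early genes, which respond to stimulation and to dissociation, had a median sum of 128 against 90 UMIs, and of 138 against 69 within cluster 1. Whether handling contributed was not tested.

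With the 5% of cells richest in the pair left out of each library, Hspa1a in enterocytes was at 21.6, 2.53 and 11.2 CPM and Hspa1b to 23.4, 4.25 and 13.2 CPM. cKO 1 was still above WT and cKO 2 below it, with log2 ratios of 0.71 and -1.10 for Hspa1a. The 1% of enterocytes with the most Hspa1a held 27.6, 38.2 and 23.4% of its UMIs, whereas the top 1% for Hspa8 held 3.67, 3.53 and 3.38% of that gene's.

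**Figure D4:**
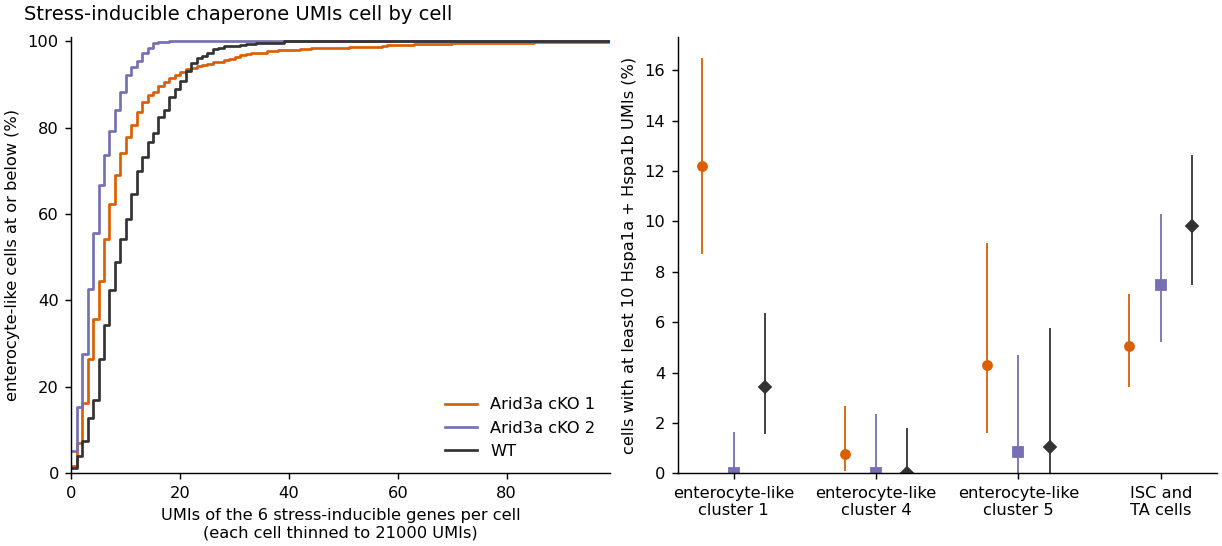
Left, cumulative share of enterocyte-like cells (%) by the summed UMIs of the 6 stress-inducible genes per cell, each cell thinned to 21000 UMIs. Right, share of cells (%) with at least 10 UMIs of Hspa1a and Hspa1b in 3 enterocyte-like clusters and in ISC and TA cells, with exact binomial 95% intervals. The curve of cKO 1 crosses that of WT near the top, and 12.2% of its cluster 1 cells are past the limit, against 0 of 223 in cKO 2 and 3.41% in WT.

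Members were also related to each other across thinned enterocytes, within each library, where the cells share a library and genes differ in how sparse their counts are. The mean Spearman coefficient over the libraries was 0.56 for Hsp90ab1 with Hspe1, 0.56 for Hspa8 with Hsp90ab1, 0.55 for Hspd1 with Hspe1 and 0.35 for Hsp90aa1 with Hspa8. The constitutive and mitochondrial members, which have many UMIs per cell, thus varied together from cell to cell. For Hsph1 with Hspa1a it was 0.01, a value that carries no reading at these counts. The summed inducible UMIs had a coefficient of 0.47, 0.34 and 0.35 with the summed immediate early genes in enterocytes and of 0.16, 0.09 and 0.10 in ISC and TA cells.

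Because the limit of 15% mitochondrial UMIs removes 66.4, 75.6 and 79.2% of barcodes, the members were followed across mitochondrial share. Only excluded barcodes with at least 1000 genes were added: 389, 539 and 766 from 15 to 25%, and 1548, 1538 and 2440 beyond 25%. The limit had removed 4543, 5209 and 9361 barcodes, so the larger part of them had fewer genes and is not covered. Hsph1 was at 30.8, 38.1 and 122 CPM in cells of at most 5%, at 23.2, 33.7 and 110 CPM from 5 to 10%, and at 21.9, 22.6 and 92.0 CPM from 10 to 15%. Among cells outside the limit it was at 18.5, 16.5 and 59.0 CPM from 15 to 25%, and at 13.0, 11.4 and 39.4 CPM beyond 25%. The level was lower in each further bin in each library, and WT was the highest library in each bin. The median of the 10 members over the 5 bins lay between -0.63 and -0.26.

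For Hspa1a cKO 2 was the lowest library in each bin, while the place of cKO 1 against WT changed. It was at 38.5, 26.9 and 46.1 CPM up to 5%, at 47.2, 24.4 and 35.5 CPM from 5 to 10%, and at 41.99, 10.2 and 43.4 CPM from 10 to 15%. Among cells outside the limit it was at 42.4, 14.6 and 47.6 CPM from 15 to 25%, and at 58.2, 18.2 and 29.9 CPM beyond 25%. The libraries cKO 1 and WT thus exchanged places between bins. Hsp90aa1 had 187, 120 and 194 CPM beyond 25%, so that cKO 1 came near WT.

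**Figure D5:**
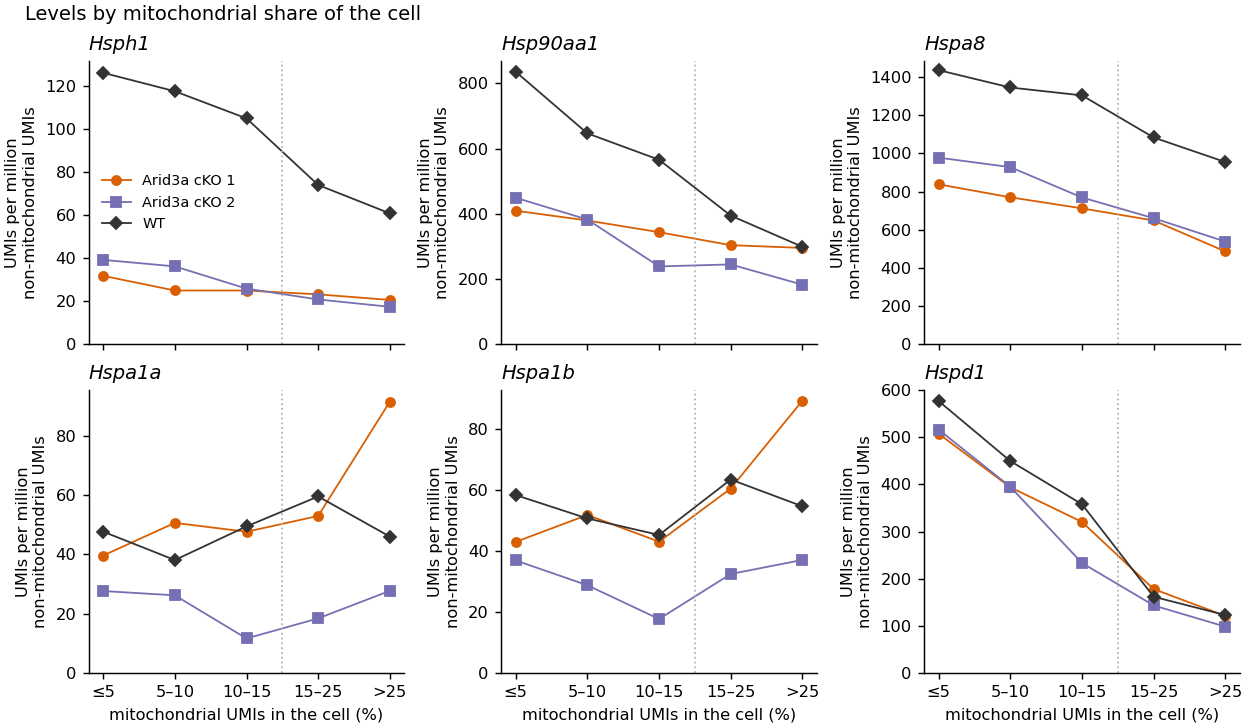
CPM of the non-mitochondrial UMIs of Hsph1, Hsp90aa1, Hspa8, Hspa1a, Hspa1b and Hspd1 by the mitochondrial share of the cells, with 1 line per library and a dotted line at the limit of 15%. Hsph1 falls with mitochondrial share in each library, from 126 to 60.7 in WT and from 31.7 to 20.5 in cKO 1, and WT stays above both cKO libraries.

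Other genes of the chaperone network were taken from 9 lists of 72 genes, of which 56 had at least 20 CPM in all cells. Of these, 0 were lower and 0 higher by the rule in both cKO libraries, where the rule counted 0.281% of all genes as lower and 0.075% as higher. The 9 tested genes of the HSP90 system had a median log2 ratio of -0.43. In it Chordc1, an HSP90 co-chaperone, was lowest with 41.1, 42.8 and 71.3 CPM (mean log2 ratio -0.70), and Cdc37, which brings kinases to HSP90, was highest at 0.06. Among 10 tested genes of the HSP70 system the median was 0.01, from -0.79 for Hspa4l, an HSP110 relative of Hsph1 (21.8, 24.1 and 43.2 CPM), to 0.14 for Bag1, another exchange factor. These lists thus contain genes with more in WT beside others at nearly the same level in all libraries, and none with the gap of Hsph1.

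The other lists had medians on both sides of 0. The 8 tested genes of the endoplasmic reticulum had a median of -0.26, from -0.40 for Hyou1, the HSP110 of that compartment, to 0.03 for Dnajb9. The 6 mitochondrial genes outside the members had 0.02, from -0.03 for Dnaja3 to 0.12 for Trap1, and the 8 subunits of the cytosolic chaperonin CCT had -0.05, from -0.12 for Cct3 to 0.10 for Cct2. Among regulators and further HSF1 targets, Hsbp1 was at 0.06 and Ubb at 0.21, and 0 of 3 other small heat shock genes were abundant enough. The 12 immediate early genes had a median of 0.20, from -0.10 for Fosb to 0.60 for Atf3 (395, 262 and 211 CPM over all cells). In enterocytes Atf3 was at 318, 270 and 261 CPM. There cKO 1 was highest for both Atf3 and Hspa1a, while WT was lowest for Atf3 and cKO 2 for Hspa1a.

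By class, the HSP90 system had a median of -0.39 in enterocytes, from -0.70 for Stip1, which links HSP70 to HSP90, to 0.13 for Cdc37. Stip1 reached the mean of 20 CPM there through WT alone (17.9, 18.1 and 32.3 CPM), so nothing is read from its place as lowest. In ISC and TA cells the median of the HSP90 system was also -0.39, and Chordc1 was lowest at -0.74. Of the HSP70 system, St13 was lowest in enterocytes (-0.51) and the J-domain protein Dnaja1 in ISC and TA cells (-0.84).

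The genes with a pattern most like Hsph1 over 21 points (7 classes in 3 libraries) were Hsp90aa1 (Pearson r = 0.90), Stip1 (0.89), Chordc1 (0.87), Hspa8 (0.86) and St13 (0.86), among 5335 genes ranked. The points share 3 libraries and the classes share their depth, so r is a description. Of the other members Hsp90ab1 came at rank 15 (r = 0.82) and Hspa1b at rank 19 (0.81). Hspd1, Dnajb1, Hspe1 and Hspa1a followed at ranks 988, 1328, 1737 and 1771. The 5 leading genes all code for HSP90, HSP70 or their co-chaperones. Hspa1a, though in the inducible group with Hsph1, was the member of lowest rank among those tested.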

How the data were processed

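The authors counted reads with Cell Ranger (5.0.0 per the file headers), and deposited them as unnormalized UMI counts, 1 matrix per library. The build used for counting is not given in the sources used here. Positions come from GENCODE M21 (GRCm38), matched by gene identifier. The members and lists were chosen with earlier results of these data known. Groups follow the genotype in the labels. Barcodes with at least 1000 genes and at most 15% mitochondrial UMIs were kept (5594 of 25554, 21.9%).

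Libraries were integrated in Seurat 5.3.0 under R 4.3.3 (canonical correlation analysis; 3000 features, then 2000 variable features, 30 components, resolution 0.3) with the members, the pathway lists and Arid3a held out. Of 12 clusters, 10 were named "-like" by fixed markers, 4 of them enterocyte-like, under a scoring rule set after the clusters were seen: at least 3 markers among the top 50 genes by fold, or else at least 3 markers and the largest share of a list at a fold of 1.5, for genes in at least 25% of cells. Named classes may differ from the study's. Cells of the tuft-like cluster were shallow (a median of 0.295 times that of their libraries), with 7 tuft markers among its top 10 genes. An enterocyte-like cluster of few cells was led by the interferon genes Ifit3 and Isg15, and 2 clusters of 903 cells together stayed unnamed. Scrublet (scanpy 1.11.5) marked 30, 34 and 46 barcodes, and doublets were kept.

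UMIs were summed per library and class with Python 3.11.15, numpy 2.4.6 and scipy 1.17.1, and scaled to CPM. Log2 ratios used a pseudocount of 5 CPM. Intervals are exact Poisson (levels) and exact Clopper-Pearson (shares), both 95%. No test was run, since WT is 1 library. A count of 0 was given the limit of 3 UMIs or cells. The named genes are the 10 members, per list the genes of lowest and highest mean log2 ratio with at least 20 CPM, Arid3a, and the 5 genes most like Hsph1. The value of 1 gene that this rule names is not reported here. Alternatives were other cell limits, pseudocount, TMM scaling (edgeR 4.0.16, factors 0.979 to 1.01), other averaging, no integration, doublet removal and leaving out a cKO library. The scripts were tested on simulated data.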

Additional observations from a re-analysis of the deposited data

How the results depend on the processing

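Over 56 results 446 values were computed again. Of these 401 stayed within the spread of the cKO libraries or, for counts, within 1.5 times. Further moves were seen for 43, and 2 moved further and changed sign. These 2 were of the rare Hspb1: 0.21 in all cells with clusters weighted equally, and 0.031 in enterocytes without integration. Some values within the spread also changed sign. Hspa1a in enterocytes went from -0.07 to 0.04 with the mean of per-cell CPM and to 1.03 without Arid3a cKO 2. Without that library Dnajb1 went from -0.12 to 0.09 in all cells and from -0.14 to 0.14 in enterocytes. No paired analysis was possible because WT has 1 library, so cKO and WT have a single replicate number in common. The alternatives without integration for cell sets and without the 5% of cells with the highest share of Hspa1a and Hspa1b were chosen after seeing the data. Hsph1 had a mean log2 ratio of -2.41 to -1.91 in enterocytes under the alternatives run. With a log2 ratio of -0.5 in place of -1, 3 members were lower in all cells, 3 in enterocytes and 2 among ISC and TA cells. The counts over all genes were then 37, 44 and 45 (0.693, 0.931 and 0.802% of those tested) in place of 15, 13 and 15. Without integration 0 members were lower in enterocytes, where the mean level of Hsph1 was under 20 CPM. Leaving out a cKO library gave 1 to 3 members lower in enterocytes (3 without Arid3a cKO 1, with 21 genes or 0.444% lower). In ISC and TA cells without Arid3a cKO 2, 30 genes (0.534%) were lower. Leaving out a cKO library moved the member median over -0.43 to -0.26 in all cells, -0.75 to -0.15 in enterocytes and -0.37 to -0.33 in ISC and TA cells. In ISC and TA cells the median was -0.33 with wide limits (25% mitochondrial UMIs, 500 genes), with clusters weighted equally, without integration and without the 5% highest Scrublet scores, and -0.34 without the cells richest in Hspa1a and Hspa1b, which gave -0.46 in all cells. The cause was not tested. Low counts limit Hspb1 outside enteroendocrine cells. The number of cells limits all members in the 17 Paneth cells of Arid3a cKO 2, which were deep (a median of 177412 UMIs).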

Other observations

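Within the enteroendocrine class, the cells with an Hspb1 UMI were described after their values had been seen, without a test. Tph1, which makes serotonin in enterochromaffin cells, stood at 3360 CPM in cells with Hspb1 and 475 CPM in cells without it in cKO 1. In cKO 2 it was at 2087 and 1037 CPM, and WT had 3339 and 827 CPM. Tac1, also known from enterochromaffin cells, went the other way, with 25.9 CPM against 766 CPM, 69.5 CPM against 741 CPM and 66.7 CPM against 1152 CPM. So did the hormone gene Gip, with 8.64 CPM against 19676 CPM, 11.1 CPM against 46774 CPM and 765 CPM against 32690 CPM. Ghrl was at 1218 CPM against 70021 CPM, 5565 CPM against 20861 CPM and 2915 CPM against 46651 CPM. Sct went with Tph1, at 15213 CPM against 9601 CPM, 33012 CPM against 15505 CPM and 86622 CPM against 35871 CPM. Pyy, Chga and Neurod1 were likewise higher in the cells with Hspb1 of each library. Cck and Chgb went different ways between libraries, Cck with 11979 against 32502, 6510 against 32792 and 45997 against 39523 CPM. Neurog3, the factor of early endocrine precursors, had 0 UMIs in the cells with Hspb1 of each library. The class holds 45, 43 and 87 cells, and a few hormone-rich cells can set such sums.

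The largest unnamed cluster (767 cells, led by Ccl20, Edn2, Bmp3, Krt19 and Car4) had Hsph1 at 28.6, 43.2 and 134 CPM in cKO 1, cKO 2 and WT.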
